A study of Mus musculus with 12 samples.

Results

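The genes described here are 5 carbonic anhydrases (Car2, Car6, Car9, Car12 and Car13) and 2 bicarbonate transporters (Slc4a2 and Slc4a7), 7 of the 42329 entries in a table of gene expression in MC38 cells, a mouse colon adenocarcinoma line. They were found by symbol, and all 7 have an entry. The genes were picked with the levels in all groups in view, so their levels and differences are a description and carry no test. The study sequenced RNA of 12 libraries, 3 in each of 4 groups: sgHcar1 cells with 20 mM lactate for 24 hours, sgHcar1 cells with PBS, sgControl cells with lactate under the same conditions, and sgControl cells with PBS. Every group is MC38 and carries a guide, either the one against Hcar1, which encodes a cell-surface receptor for lactate, or the control guide. Whether either guide population is 1 clone or a pool is not given in the sources used here. Nothing in the labels ties the 3 libraries per group to cultures grown apart, so SEs and p-values measure only the spread between these libraries.

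Carbonic anhydrases interconvert carbon dioxide and water with bicarbonate and a proton. Isoforms with the catalytic domain outside the cell, such as CA9 and CA12, let tumour cells that export lactate and protons hydrate carbon dioxide at the cell surface, and cytosolic isoforms buffer the interior. Bicarbonate transporters of the SLC4 family then move bicarbonate across the membrane: SLC4A7 brings it in with sodium and raises internal pH, while SLC4A2 exchanges internal bicarbonate for chloride and lowers it. CA9 is a classical target of the hypoxia-inducible factors, whose core binding letters lie beside its start site in human.

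Values are the deposited FPKM, in which fragment counts are divided by gene length and scaled per library, so that levels of different genes compare per length. A median-ratio size factor is the median over genes of a library's level divided by the geometric mean of all libraries. Computed here it was 1.009 in every library although FPKM sums differed, so the values were already on a common median-ratio scale. Differences are log2(FPKM + 1) with the SE of a limma fit to all 12 libraries. The genes that passed the filter on low values (at least 1 FPKM in at least 3 libraries) numbered 13736, among them 6 of the 7 genes described, all but Car2. Hcar1 itself was listed at 0 in 11 of the 12 libraries and at 0.0196 FPKM in 1 sgHcar1 PBS library, so its level gives no check of the guide. Epcam and Cdx2, defining genes of intestinal epithelium, were at 0 in all 12 libraries. The keratin gene Krt18 stood at 112.5 and 46.2 FPKM on average in sgHcar1 lactate and PBS cells, against 0 and 0.027 FPKM in sgControl lactate and PBS cells. The epithelial cadherin gene Cdh1 and Krt19 ran the other way: both were at 0 in all sgHcar1 libraries, while in sgControl lactate and PBS cells Cdh1 stood at 4.53 and 1.72 FPKM and Krt19 at 0.300 and 1.31 FPKM. The summed level of 8 leukocyte markers was at most 6.94 FPKM in any library, nearly all of it Cd68, and Cd3e, Itgam and Adgre1 were at 0 in every group. Cd68 was higher with lactate, at 4.91 and 1.78 FPKM in sgHcar1 lactate and PBS cells, against 6.54 and 4.36 FPKM in sgControl lactate and PBS cells (limma, adjusted p = 1.46e-05 and 0.00549 for lactate). Fibroblast genes differed between guides in both directions: Col1a2 stood at 51.1 and 115 FPKM in sgHcar1 lactate and PBS cells, against 34.1 and 45.5 FPKM in sgControl lactate and PBS cells. Col3a1 stood at 0.256 and 1.55 FPKM in sgHcar1 lactate and PBS cells, against 63.1 and 67.2 FPKM in sgControl lactate and PBS cells. The part of these marker differences in the levels described below was not tested. Many genes differed in every comparison: with limma and Benjamini-Hochberg adjustment, 72.2% of genes were called for lactate in sgHcar1 cells, 65.7% for lactate in sgControl cells, 82.2% between guides in lactate and 76.7% between guides in PBS. Of these calls 50.9%, 51.5%, 50.3% and 49.9% were higher, in that order. The median-ratio scale keeps the median gene near 0 in every comparison, so a near-even split was largely set by the scaling. When every library was instead rescaled to the same sum, the shares called higher were 40%, 55.6%, 31.7% and 38.6%. Rescaling moved the differences of single genes by a median of -0.18, 0.045, -0.40 and -0.18.

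The windows around the start sites of 3 of the carbonic anhydrase genes are shown because Car9 and Car12 were lower and Car6 was higher with lactate in sgHcar1 cells. Each holds the 250 bases before and the first 50 bases after a start site of RefSeq on GRCm38.p6, read along the gene. Capitals mark matches to ACGTG or GCGTG, the core letters of a hypoxia response element, on either strand.
Car9, chr4:43506776-43507075, plus strand: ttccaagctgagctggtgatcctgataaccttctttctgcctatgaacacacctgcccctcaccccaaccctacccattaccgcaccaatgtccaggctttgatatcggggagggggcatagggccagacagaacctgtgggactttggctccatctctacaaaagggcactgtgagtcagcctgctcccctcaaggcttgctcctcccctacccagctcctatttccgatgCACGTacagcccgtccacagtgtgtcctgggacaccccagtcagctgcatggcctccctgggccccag
Car12, chr9:66713436-66713735, plus strand: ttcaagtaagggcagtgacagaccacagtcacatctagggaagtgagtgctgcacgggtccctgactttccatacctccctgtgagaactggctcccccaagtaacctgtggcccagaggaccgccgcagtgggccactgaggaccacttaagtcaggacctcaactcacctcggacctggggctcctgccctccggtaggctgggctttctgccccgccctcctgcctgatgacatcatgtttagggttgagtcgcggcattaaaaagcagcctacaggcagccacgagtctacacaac
Car6, chr4:150201086-150201385, minus strand: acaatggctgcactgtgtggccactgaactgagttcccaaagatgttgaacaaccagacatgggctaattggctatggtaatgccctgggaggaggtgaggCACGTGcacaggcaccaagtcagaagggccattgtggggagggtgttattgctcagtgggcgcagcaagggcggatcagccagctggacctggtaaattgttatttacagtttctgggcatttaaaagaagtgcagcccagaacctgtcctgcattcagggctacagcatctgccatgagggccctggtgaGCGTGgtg
The Car9 window holds 1 match, on the opposite strand, beginning at base -18 from the RefSeq start site. In the GENCODE annotation Car9 begins at base 43506966, ahead of this match, which then lies inside the gene. The Car12 window holds none. The Car6 window holds the palindrome CACGTG from base -149, a match on both strands, and GCGTG from base 43 inside the transcript. ACGTG occurs in 19.6% of all 32851 promoter windows of this length, GCGTG in 32.4% and either in 43.8%, so a match is common. TGATGNAA, the core of a CHOP and ATF4 composite element, occurs in 3.97% of windows and in none of these 3. The Car6 window does not reach the downstream coding start of that gene, described below, so TGATGNAA was not searched for there. RefSeq windows were at hand for 5 of the 7 genes, and Car2 and Car13 are named only.

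Car6 encodes the secreted carbonic anhydrase of saliva. In mouse, a shorter intracellular form that starts from an internal promoter has been described as a target of CHOP, the stress factor encoded by Ddit3. Car6 lies at chr4:150187015-150201332 on the minus strand (GRCm38). Its 2 protein-coding transcripts start 2862 bases apart, and a level per gene cannot tell them apart. The window above is placed on the RefSeq start. In the GENCODE annotation, which gave these gene coordinates, the upstream coding transcript begins at base 150201332. That base lies inside the window and ahead of its CACGTG, so the annotations disagree on where the start is. Car6 measured 174.7, 185.8 and 189.6 FPKM in sgHcar1 lactate libraries, against 16.9, 17.0 and 15.5 FPKM in sgHcar1 PBS libraries. The sgControl libraries gave 22.3, 19.4 and 20.9 FPKM with lactate, against 0.285, 0.315 and 0.217 FPKM with PBS. Lactate libraries were above PBS libraries in both guide populations, and the 4 groups did not overlap: sgHcar1 lactate was highest, then sgControl lactate, then sgHcar1 PBS, then sgControl PBS. The lactate difference was 3.40 ± 0.06 in sgHcar1 cells and 4.10 ± 0.06 in sgControl cells. In these bulk libraries, more cells with a transcript and more transcript per cell cannot be told apart.

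How the Car6 responses compare between guides depends on the scale. The ratio of lactate to PBS means was 11.2 in sgHcar1 cells and 76.7 in sgControl cells, while the gain was 166.9 FPKM in sgHcar1 cells and 20.6 FPKM in sgControl cells. On the log2(FPKM + 1) scale the lactate difference in sgHcar1 minus that in sgControl was -0.70 ± 0.08. With a pseudocount of 0.1 it was -2.35, since the sgControl PBS level lies below 1 FPKM. With libraries rescaled to the same sum before the pseudocount was added it was -1.94. Between guides, Car6 stood 8.78 times higher in sgHcar1 cells with lactate and 60.3 times higher with PBS. In sgHcar1 lactate cells Car6 ranked 292 from the top of the 13736 genes.

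**Figure D1:**
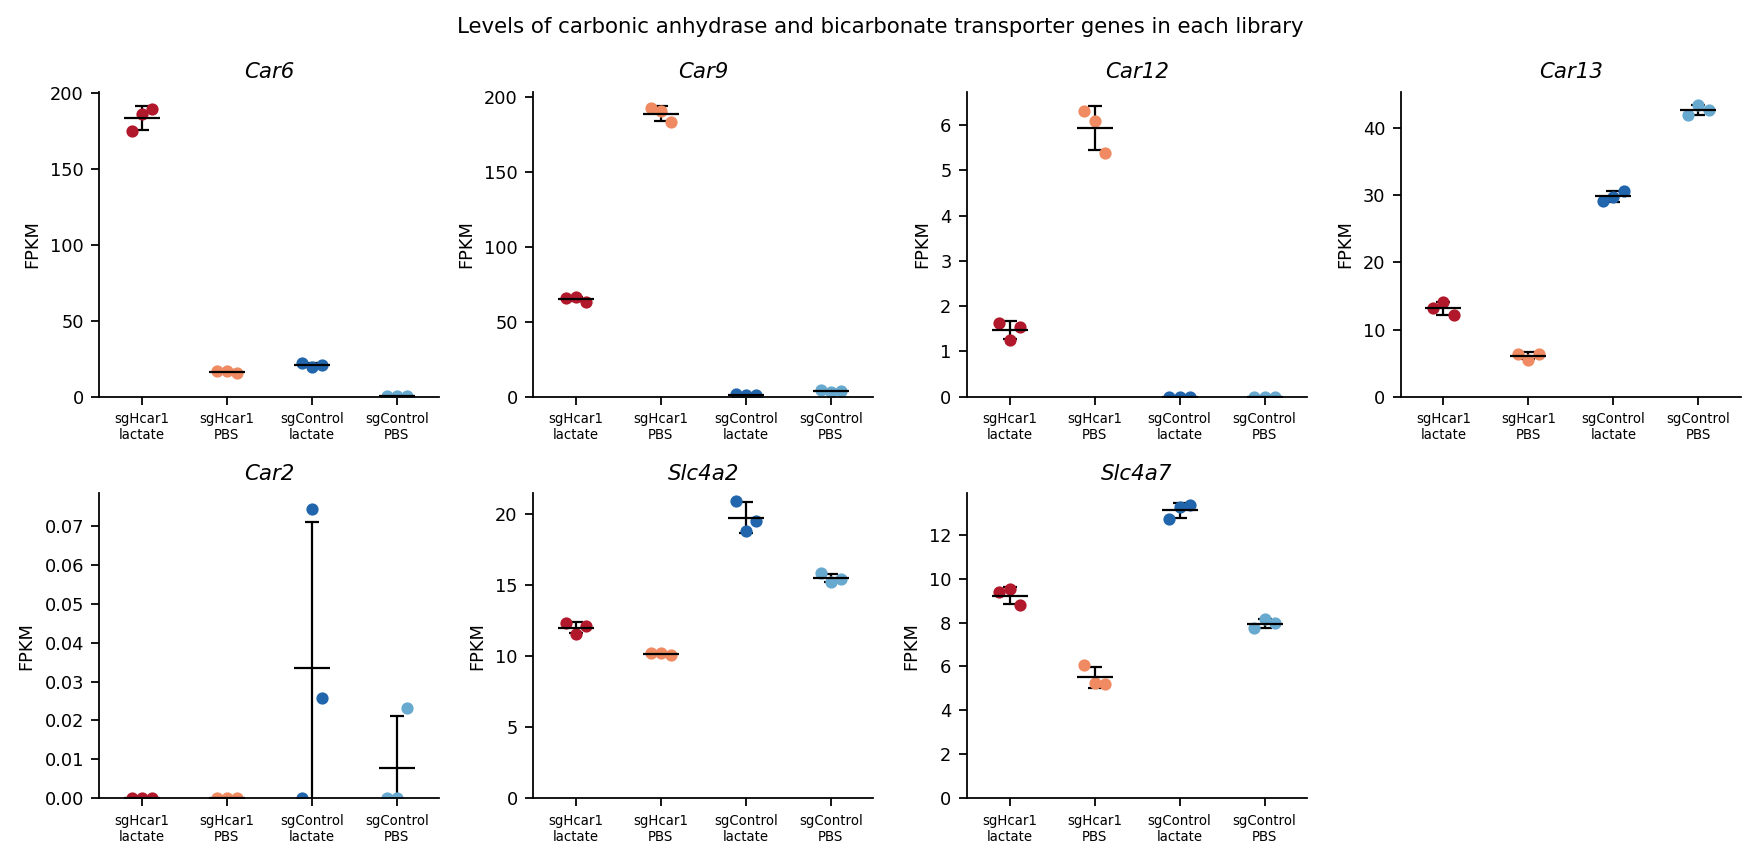
FPKM of the 7 genes (vertical axes, linear, from 0, 1 panel per gene) in each library of the 4 groups (horizontal axes). Points are the 3 libraries of a group, and the bar with whiskers is their mean ± SD. Car6 is highest in sgHcar1 lactate, Car9 and Car12 in sgHcar1 PBS, Car13 in sgControl PBS, and the 2 transporters in sgControl lactate. Car2 does not pass 0.0744 FPKM.

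Car9 encodes a membrane-anchored enzyme with its catalytic domain outside the cell, widely used as a marker of hypoxic tumours (chr4:43506966-43513729, plus strand). It measured 65.6, 66.4 and 63.3 FPKM in sgHcar1 lactate libraries, against 193, 190.4 and 183 FPKM in sgHcar1 PBS libraries. With the control guide it measured 1.61, 1.07 and 1.14 FPKM with lactate, against 4.13, 3.36 and 3.59 FPKM with PBS. Lactate libraries were below PBS libraries in both guide populations, and every sgHcar1 library was above every sgControl library. The difference was -1.52 ± 0.08 in sgHcar1 cells and -1.05 ± 0.08 in sgControl cells. The size of this difference depends on the scale: with a pseudocount of 0.1 the differences were -1.53 and -1.48, and the lactate mean was 34.5% of the PBS mean in sgHcar1 cells and 34.4% in sgControl cells. The difference between these lactate differences was -0.47 ± 0.12 with a pseudocount of 1 and -0.05 with 0.1.

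The guide difference of Car9 was much larger than its lactate difference. Car9 stood 51.2 times higher in sgHcar1 than in sgControl cells with lactate and 51.1 times higher with PBS, or 4.87 ± 0.08 and 5.34 ± 0.08 on the log2(FPKM + 1) scale. In sgHcar1 PBS cells it ranked 256 from the top of all tested genes, and in sgControl PBS cells 8933.

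Car12, the other membrane-anchored isoform with an outward-facing catalytic domain (chr9:66713686-66766845, plus strand), was detected in sgHcar1 cells alone. It measured 1.63, 1.25 and 1.55 FPKM with lactate, against 6.31, 6.10 and 5.38 FPKM with PBS, and was listed at 0 in all 6 sgControl libraries. The sgHcar1 groups did not overlap, and the lactate mean was 24.9% of the PBS mean, a difference of -1.49 ± 0.07. No fold is given against the sgControl groups.

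Car13 encodes a cytosolic isoform (chr3:14641727-14663002, plus strand). It measured 13.2, 14.1 and 12.2 FPKM in sgHcar1 lactate libraries, against 6.38, 5.47 and 6.41 FPKM in sgHcar1 PBS libraries. The sgControl values were 29.1, 29.8 and 30.7 FPKM with lactate, against 42.0, 43.6 and 42.8 FPKM with PBS. The lactate libraries thus lay above the PBS libraries in sgHcar1 cells and below them in sgControl cells, with no overlap in either. The differences were 1.00 ± 0.06 and -0.50 ± 0.06, and their difference was 1.51 ± 0.08. Car13 was lower in sgHcar1 than in sgControl cells under both treatments, at 44.1% of the sgControl mean with lactate and 14.2% with PBS.

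Car2, the high-activity cytosolic isoform, was at 0 in all 6 sgHcar1 libraries. In sgControl cells it was at 0, 0.0744 and 0.0257 FPKM with lactate, and at 0, 0 and 0.0233 FPKM with PBS. These levels are at the limit of what the libraries show and give no order of groups. Car2 and Car13 are neighbours: with Car1 and Car3 they are the 4 protein-coding genes in 259.0 kb of chromosome 3 in the annotation. Car1 and Car3 reached at most 0.0555 and 0.0225 FPKM in any library, so Car13 alone of the cluster was expressed above 0.1 FPKM.

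**Figure D2:**
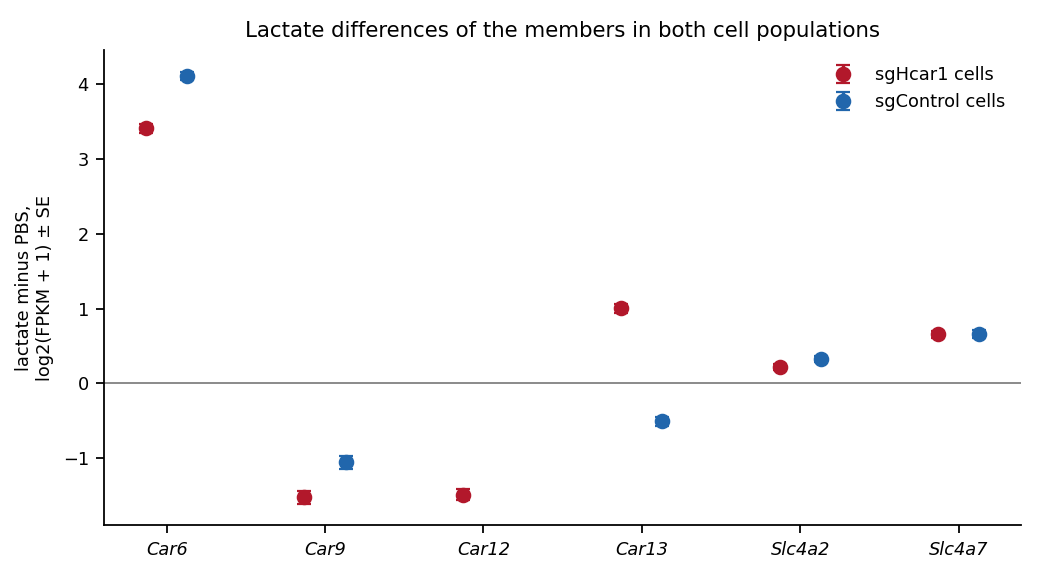
Lactate minus PBS in log2(FPKM + 1) units (vertical axis) for the 6 genes that passed the filter (horizontal axis), in sgHcar1 and sgControl cells. Points are fitted differences and whiskers their SE. Car6 is at 3.40 and 4.10, Car9 at -1.52 and -1.05, and Car13 at 1.00 and -0.50. Car12 has no sgControl point because it is listed at 0 there.

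Of the 6 genes past the filter, 4 had lactate libraries all above and 2 all below the PBS libraries in sgHcar1 cells. Such groups without overlap made up 73.6% of all tested genes, 37.7% with lactate above and 35.9% below. In sgControl cells the counts were 3 above and 2 below, where 70.2% of tested genes did not overlap, 36.2% above and 34.0% below. Between guides, 3 were higher and 3 lower in sgHcar1 cells under each treatment. There 82.3% of tested genes did not overlap with lactate (41.3% higher and 41.0% lower), and 79.2% with PBS (39.6% higher and 39.6% lower). The genes were chosen for such differences, so nothing is read from these counts.

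The make-up of carbonic anhydrase transcripts differed between the 4 groups. The 16 carbonic anhydrase genes with an entry summed to 274.1 ± 6.9 FPKM in sgHcar1 lactate cells and 237.2 ± 6.35 FPKM in sgHcar1 PBS cells. The sums were 56.2 ± 2.10 FPKM in sgControl lactate cells and 48.7 ± 0.483 FPKM in sgControl PBS cells (SD, n = 3 each). In sgHcar1 cells, Car6 made up 66.9% of the sum with lactate, against 6.93% with PBS, and Car9 made up 23.8% with lactate, against 79.5% with PBS. In sgControl cells, Car6 made up 37.1% with lactate, against 0.558% with PBS, and Car13 made up 53.2% with lactate, against 87.8% with PBS. The leading isoform was therefore Car6 in sgHcar1 lactate, Car9 in sgHcar1 PBS, and the cytosolic Car13 in both sgControl groups. The sums moved much less with lactate than the shares did, and the 5 genes described made up 91.5% to 96.0% of the sum on average in each group.

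**Figure D3:**
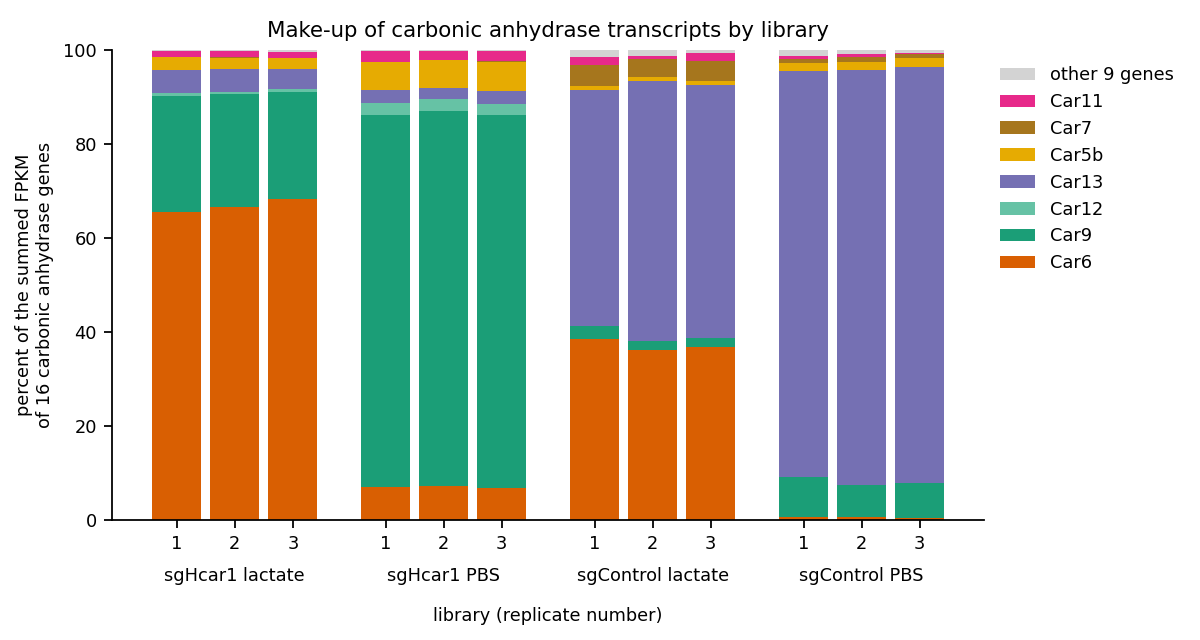
Share of each carbonic anhydrase gene in the summed FPKM of 16 carbonic anhydrase genes (vertical axis, percent) in each of the 12 libraries (1 stacked bar per library, replicates 1 to 3 of each group). Car6 leads in the 3 sgHcar1 lactate libraries with 66.9% on average and Car9 in the 3 sgHcar1 PBS libraries with 79.5%, while Car13 leads in all 6 sgControl libraries. The grey segment sums the other 9 genes.

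Slc4a2, the chloride and bicarbonate exchanger AE2 (chr5:24423837-24440950, plus strand), varied least among the 6, with a root mean square of 0.341 in log2(FPKM + 1) around its mean over the 12 libraries. It measured 12.3, 11.6 and 12.1 FPKM in sgHcar1 lactate libraries, against 10.2, 10.2 and 10.1 FPKM in sgHcar1 PBS libraries. Among sgControl libraries it measured 20.9, 18.8 and 19.6 FPKM with lactate, against 15.9, 15.3 and 15.4 FPKM with PBS. Lactate libraries were above PBS libraries in both populations, by 0.22 ± 0.04 in sgHcar1 cells and 0.33 ± 0.04 in sgControl cells. With libraries rescaled to the same sum the sgHcar1 difference was 0.05 ± 0.04. Slc4a2 was lower in sgHcar1 than in sgControl cells, with differences of -0.67 ± 0.04 with lactate and -0.56 ± 0.04 with PBS, and of -1.10 with lactate after rescaling.

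Slc4a7, the sodium and bicarbonate cotransporter NBCn1 (chr14:14702279-14799940, plus strand), measured 9.37, 9.53 and 8.78 FPKM in sgHcar1 lactate libraries, against 6.06, 5.24 and 5.22 FPKM in sgHcar1 PBS libraries. In sgControl cells it measured 12.7, 13.3 and 13.4 FPKM with lactate, against 7.76, 8.14 and 7.96 FPKM with PBS. Lactate libraries were again above PBS libraries in both populations, and the lactate differences were 0.65 ± 0.05 in sgHcar1 cells and 0.66 ± 0.05 in sgControl cells. As ratios of means they were 1.68 and 1.65. Slc4a7 was lower in sgHcar1 than in sgControl cells, with a difference of -0.46 ± 0.05 under either treatment, and of -0.89 with lactate after rescaling. The ratio of Slc4a7 to Slc4a2 within a library, which no rescaling of a whole library changes, averaged 0.769 ± 0.050 in sgHcar1 lactate cells and 0.541 ± 0.046 in sgHcar1 PBS cells. The sgControl average was 0.665 ± 0.051 with lactate and 0.513 ± 0.022 with PBS (SD, n = 3 each). The Slc4a7 to Slc4a2 transcript ratio was thus higher with lactate in both populations, with no overlap between the libraries. Its bearing on bicarbonate transport was not tested.

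A further 6 lists cover other genes of acid-base handling, with 66 symbols, 65 of them with an entry and 26 past the filter. With limma and Benjamini-Hochberg adjustment over all genes, 7 rose, 11 fell and 8 did not pass with lactate in sgHcar1 cells, a share called of 69.2%. Of all tested genes 72.2% were called there, 36.8% higher and 35.4% lower. In sgControl cells 10 rose, 11 fell and 5 did not pass, a share of 80.8% beside 65.7% of all genes (33.9% higher and 31.9% lower). Between guides, 10 were higher and 14 lower in sgHcar1 cells with lactate, beside 41.3% and 40.9% of all genes, and 10 were higher and 13 lower with PBS, beside 38.2% and 38.4%. The lactate effect differed between guides for 15 of the 26, 5 higher and 10 lower in sgHcar1 cells, beside 59.1% of all genes (30.4% higher and 28.7% lower). These counts were 4 higher and 16 lower after rescaling libraries to the same sum, and 4 higher and 7 lower with a pseudocount of 0.1. The median lactate difference over the 26 genes was -0.0019 in sgHcar1 cells and -0.063 in sgControl cells, beside 0 and 0.00095 over all tested genes. The median-ratio scale of the values keeps such all-gene medians near 0.

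Among the other 11 carbonic anhydrases, 3 passed the filter, and the remaining 8 reached at most 0.622 FPKM in any library, with Car4, Car8 and Car10 at 0 throughout. Car5b, a mitochondrial isoform, measured 6.67 ± 0.27 FPKM in sgHcar1 lactate cells and 14.5 ± 0.31 FPKM in sgHcar1 PBS cells, against 0.481 ± 0.019 and 0.873 ± 0.053 FPKM in sgControl lactate and PBS cells. It fell with lactate in sgHcar1 cells (-1.01 ± 0.04, limma, adjusted p = 2.88e-09) and in sgControl cells (-0.34 ± 0.04, limma, adjusted p = 3.94e-05). The gap between these differences depends on the scale, since the pseudocount of 1 shrinks the sgControl difference at levels below 1 FPKM. The Car5b lactate mean was 46.1% of the PBS mean in sgHcar1 cells and 55.1% in sgControl cells. Car5b thus had the same order of groups as Car9. Car11, a catalytically inactive relative, fell in sgHcar1 cells (-0.50 ± 0.14, limma, adjusted p = 0.00855), a call that did not hold with a pseudocount of 0.1. With the control guide Car11 stood at 0.789 ± 0.382 FPKM with lactate and 0.283 ± 0.133 FPKM with PBS, groups that overlapped. That difference of 0.46 (limma, adjusted p = 0.015) no longer passed when the fit held only the sgControl libraries or when 1 of 3 sgControl libraries (lactate 1, lactate 3 or PBS 3) was left out, at 0.35 to 0.38. Car7, a cytosolic isoform, stood at 0.162 and 0.046 FPKM in sgHcar1 lactate and PBS cells, against 2.34 and 0.436 FPKM in sgControl lactate and PBS cells.

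In the SLC4 family, Slc4a11 rose with lactate in both populations, at 0.851 and 0.409 FPKM in sgHcar1 lactate and PBS cells, against 2.43 and 1.13 FPKM in sgControl lactate and PBS cells (limma, adjusted p = 0.000693 and 1.18e-05). The sodium-driven bicarbonate transporter Slc4a8 was listed at 0 in 5 of 6 sgHcar1 libraries. In sgControl cells Slc4a8 fell to 4.47 ± 0.22 FPKM with lactate, against 5.95 ± 0.41 FPKM with PBS (limma, adjusted p = 0.000273). Slc4a4, another sodium and bicarbonate cotransporter, was at 0 in all 6 sgHcar1 libraries and at 1.91 and 1.28 FPKM in sgControl lactate and PBS cells. In sgHcar1 cells Slc4a2, Slc4a7 and Slc4a3 were thus the SLC4 genes above 1 FPKM.

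Of the sodium and proton exchangers, Slc9a5 fell in both populations (-0.88 in sgHcar1 and -0.90 in sgControl cells). Among anion exchangers of the SLC26 family, Slc26a11 rose in both, by 0.81 in sgHcar1 cells and 1.08 in sgControl cells. Slc26a6 fell in sgHcar1 cells (-0.52 ± 0.10, limma, adjusted p = 0.000846), and Slc9b1 stood at 2.74 and 2.48 FPKM in sgHcar1 lactate and PBS cells, against 0.026 and 0.039 FPKM in sgControl lactate and PBS cells. The acid-sensing channel gene Asic1 fell in both populations (-1.03 in sgHcar1 and -0.45 in sgControl cells).

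Among partners of these transporters, Bsg, which encodes basigin, the chaperone of the monocarboxylate transporters MCT1 and MCT4, fell with lactate to 304.5 FPKM in sgHcar1 cells, against 676.7 FPKM with PBS, and to 174.9 FPKM in sgControl cells, against 392.9 FPKM with PBS. Its differences were -1.15 and -1.16. The kinase gene Oxsr1 rose by 0.90 in sgHcar1 and 0.68 in sgControl cells, and its relative Stk39 was at 0 in all sgHcar1 libraries. Ahcyl2, a relative of the SLC4 regulator IRBIT (Ahcyl1), rose by 0.95 and 0.40, while Ahcyl1 did not pass for lactate in either population (0.01 and 0.04, but -0.18 and 0.08, both past the threshold, after rescaling) and was higher in sgHcar1 cells by 1.33 with lactate and 1.36 with PBS. Slc9a3r1, a scaffold for exchangers, fell in both (-0.75 and -0.63). It was also lower in sgHcar1 than in sgControl cells, with differences of -2.40 with lactate and -2.28 with PBS.

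**Figure D4:**
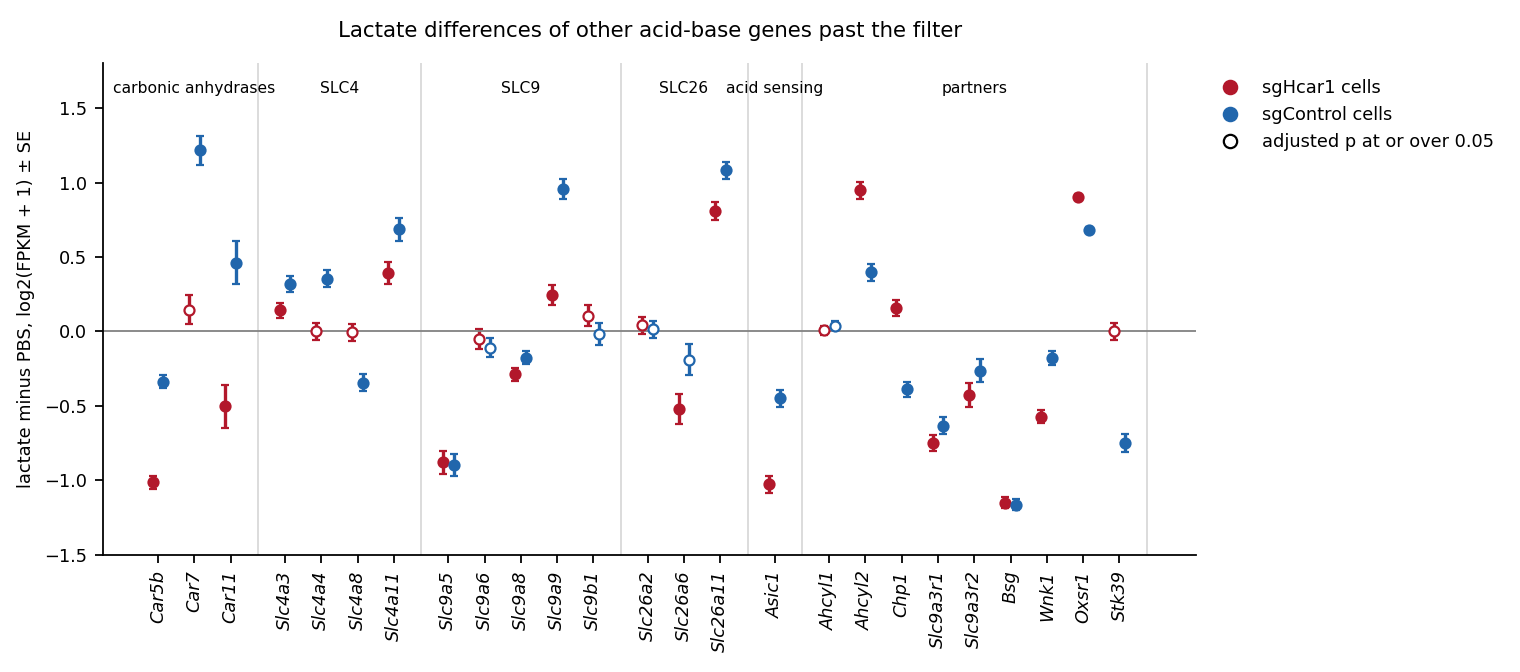
Lactate minus PBS in log2(FPKM + 1) units (vertical axis) for 25 of the 26 other acid-base genes past the filter, grouped by list (horizontal axis), in sgHcar1 and sgControl cells. Points are fitted differences, whiskers their SE, and open points did not pass an adjusted p of 0.05. Bsg is the lowest at -1.15 and -1.16, and Car11 lies below 0 in sgHcar1 and above 0 in sgControl cells. Slc4a4, Slc4a8 and Stk39 are at or near 0 FPKM in sgHcar1 cells, which places their open points at 0.

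Levels of factors known to act on Car9 and Car6 are given beside them. Hif1a averaged 39.9 and 26.4 FPKM in sgHcar1 lactate and PBS cells, against 40.5 and 23.7 FPKM in sgControl lactate and PBS cells, so within each guide population transcript of this hypoxia-inducible factor was higher where Car9 was lower. Its partner Arnt averaged 23.0 and 10.0 FPKM, against 17.0 and 10.3 FPKM, in the same groups, and Epas1 reached at most 0.0121 FPKM. Vhl, which marks the factor for degradation, averaged 8.54 and 24.4 FPKM in sgHcar1 lactate and PBS cells, against 10.1 and 13.6 FPKM in sgControl lactate and PBS cells. The prolyl hydroxylase gene Egln1, whose product hydroxylates the factor for recognition by VHL and which is itself a hypoxia target, averaged 19.3 and 99.6 FPKM in sgHcar1 lactate and PBS cells, against 17.0 and 67.5 FPKM in sgControl lactate and PBS cells. Egln1 was lower with lactate, as Car9 was, but its levels in the 2 guide populations lay far closer together. Egln3, another hypoxia target, was at 0 and 0.064 FPKM in sgHcar1 lactate and PBS cells, against 1.43 and 18.9 FPKM in sgControl lactate and PBS cells, the opposite guide order to Car9. Ddit3 averaged 382.2 and 65.0 FPKM in sgHcar1 lactate and PBS cells, against 197.3 and 12.1 FPKM in sgControl lactate and PBS cells, and Atf4 averaged 632 and 494.7 FPKM, against 767.5 and 220.9 FPKM. Ddit3 was higher with lactate and higher in sgHcar1 cells, as Car6 was. The part of any of these factors in the levels of Car6 and Car9 was not tested.

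Genes whose pattern over the 12 libraries lay closest to each gene described were found by the root mean square difference of centred log2(FPKM + 1), over 10001 genes with a standard symbol. For Car6 they were Ptgs2 (0.743), Angptl6 (0.884) and Soat2 (0.903), beside a root mean square of 2.55 for Car6 itself. Ptgs2, which encodes cyclooxygenase 2, averaged 980.3 and 44.3 FPKM in sgHcar1 lactate and PBS cells, against 150.0 and 12.6 FPKM in sgControl lactate and PBS cells. For Car9 they were Cdh26 (0.463), Rhox5 (0.551) and Sema3a (0.584), and for Car12 they were Sele (0.109), Fst (0.148) and Hilpda (0.201). Sele averaged 1.63 and 5.89 FPKM in sgHcar1 lactate and PBS cells, against 0.0065 and 0.013 FPKM in sgControl lactate and PBS cells. In the same groups Fst averaged 2.20 and 6.86 FPKM, against 0.050 and 0.257 FPKM. Hilpda, a hypoxia-inducible lipid droplet gene, averaged 28.3 and 81.5 FPKM in sgHcar1 lactate and PBS cells, against 9.05 and 13.6 FPKM in sgControl lactate and PBS cells. For Car13 they were Nfkbia (0.213), Nbl1 (0.266) and Limd2 (0.275). The closest to Slc4a2 were Zdhhc20 (0.065), Etv6 (0.069) and Ube2o (0.069), and the closest to Slc4a7 were Ggnbp2 (0.067), Pi4k2b (0.079) and Hexa (0.079). These are likenesses over libraries that share 4 group means, and they say nothing of shared function or control.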

How the data were processed

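RNA of 12 MC38 libraries (4 groups of 3) was extracted with Trizol and made into TruSeq libraries, per the labels' protocols. The authors deposited FPKM per gene, per the file headers. HISAT2 2.0.5, featureCounts 1.5.0-p3 and GRCm38 are named in the submitters' processing notes. No counts were analysed here. Over genes of at most 0.5 FPKM, the commonest ratios between libraries put the relative scaling factor at 0.746 to 1 of the highest (0.746 to 0.793 in sgHcar1 lactate). Each library was compared with sgControl PBS library 1, and the commonest ratio held for 14.6% to 20.5% of the genes compared. Since the values are on a median-ratio scale, these factors need not follow the number of reads. FPKM sums ran from 310109 to 421984 per library, and absolute depth is unknown, so no counting interval is given. Columns were mapped by their letters, those of sgHcar1 by elimination. Gene IDs in the table are of the C57BL/6NJ strain annotation. Coordinates come from GENCODE M21 (GRCm38), by symbol.

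FPKM were tested as log2(FPKM + 1) with limma 3.58.1 (R 4.3.3), 1 mean per group and an intensity trend, two-sided, with Benjamini-Hochberg adjustment over 13736 genes in each of 5 contrasts and a threshold of 0.05. The pseudocount shrinks changes of low genes. The script was tested on simulated data. The genes described and all lists were chosen with earlier results of these data known. Other genes named are, per list and contrast between 2 groups, the called gene with the largest rise and that with the largest fall (12-library mean at or over 1 FPKM), plus carbonic anhydrase, SLC4, factor and marker genes by level, and genes of like pattern. Of the listed genes, 1 stays in the counts but is not reported here. Alternatives changed the pseudocount, filter, scaling, trend, replicate block, libraries in the fit and each single library. Of the scalings, the median-ratio one could change little, since the deposited values were already on that scale. Pairing by replicate number was checked with 18 correlations of deviations (-0.051 to 0.085), none over 0.1, so no block was used. Replicates correlated at 0.990 to 0.992 and no libraries were identical. Of other cell types, summed markers reached at most 0.660 FPKM (erythroid), 0.821 FPKM (endothelium) and 145.2 FPKM (fibroblast, mostly Col1a2 in sgHcar1 and Col3a1 in sgControl cells).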

Additional observations from a re-analysis of the deposited data

Results flagged for a closer look

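Car13 is listed for a closer look because every lactate library lay above every PBS library in sgHcar1 cells and below in sgControl cells. The lactate differences were 1.00 and -0.50, and differ by 1.51. That difference was not tested, since the gene was chosen with these values in view.

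Genes outside the 7 had lactate effects that differed between guides in the interaction term of the limma fit (adjusted p under 0.05). The effect in sgHcar1 minus that in sgControl cells was -0.96 for Car11, -0.67 for Car5b, -0.58 for Asic1, -0.29 for Slc4a11 and -0.27 for Slc26a11. It was 0.55 for Ahcyl2, 0.22 for Oxsr1, 0.34 for Slc4a8 and 0.75 for Stk39. Slc4a8 and Stk39 are at or near 0 in sgHcar1 cells, so their values restate the fall in sgControl cells. The Car5b value depends on the scale, since its sgControl levels lie below 1 FPKM. Its lactate mean was 46.1% of the PBS mean in sgHcar1 cells and 55.1% in sgControl cells. With a pseudocount of 0.1 the Slc26a11 value turned to 0.42, and after rescaling libraries to the same sum the Oxsr1 value turned to -0.014. The Slc4a11 value did not pass with a pseudocount of 0.1, without a low-value filter, with the replicate block or with any 1 of 8 of the 12 libraries left out. The Slc4a8 value did not pass with a pseudocount of 0.1, nor did that of Slc26a11 after rescaling or that of Oxsr1 with quantile normalization. The interaction was called for 59.1% of all tested genes. Groups of 3 libraries are too small for a test of single outlying libraries.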

How the results depend on the processing

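With genes kept only at a 12-library mean of 5 FPKM or more, 10 listed genes outside the 7 were called for lactate in sgHcar1 cells and 10 in sgControl cells (18 and 21 with the usual filter), 5 for the interaction (15), and 11 between guides with lactate and 11 with PBS (24 and 23). Fewer genes were then tested. Genes called between guides were 7191 with lactate (11292) and 6815 with PBS (10529). The interaction of Slc26a11 turned to 0.42 with a pseudocount of 0.1, and that of Oxsr1 to -0.014 with libraries rescaled to the same sum; the cause was not tested. The interaction of Slc4a11 did not pass with a pseudocount of 0.1, without a low-value filter or with the replicate block, nor with any 1 of 8 of the 12 libraries left out. After rescaling, 30.1% of interaction calls were higher (51.4% otherwise) and the interaction values of single genes moved by a median of -0.23. The replicate numbers do not pair the libraries. With the replicate block, 9899 genes were called for lactate in sgHcar1 cells and 8938 in sgControl cells, and 17 and 21 listed genes. Leaving out any 1 library gave 16 to 17 and 19 to 21 listed genes. Differences of Car6, Car9, Car13, Slc4a2 and Slc4a7 kept their direction under every alternative run. The exception was the near-zero interaction of Slc4a7 (-0.21 after rescaling, 0.02 with a pseudocount of 0.1). For Car12 only the lactate difference in sgHcar1 cells was run under alternatives, and it kept its direction. Car12 has no value under that stricter filter, and Car2 none anywhere. Car2, and Car12 in sgControl cells, are limited by low signal.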
